A study of Mus musculus with 9 samples.

Results

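The purine nucleotide cycle was described here by 6 genes: Ampd1, Ampd2 and Ampd3, which encode AMP deaminases, Adssl1 and Adss, which encode adenylosuccinate synthases, and Adsl, which encodes adenylosuccinate lyase. They were found as the probe sets whose only gene symbol was one of these names, which gave 7 probe sets for the 6 genes, of 25581 single-symbol probe sets for 14440 genes. Ampd2 had 2 probe sets and each other gene 1. The genes were proposed with the differences between tumours and muscle in these arrays already known, so those differences are given as a description with no test.

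The samples were 5 tumours from mice labelled MYF-5 CRE/SSM2, whose description names SYT-SSX, and 4 pieces of skeletal muscle titled wild type. SYT-SSX is a fusion protein found in synovial sarcoma, a cancer of soft tissue, and Cre in these mice is named for Myf5, a gene of muscle precursor cells. By their labels, tumour 1 was CC23, tumour 2 CC17-B, tumour 3 CC17-A, tumour 4 SSM5 and tumour 5 SSM4. Muscles 1 and 4 came from the hind limb, muscle 2 was intercostal and muscle 3 came from the forelimb. Tissue and genotype differ together in every comparison and cannot be told apart. The labels give neither age nor treatment of the animals, and do not state that samples came from different animals, so p-values measure the spread between these samples. In bulk tissue, fewer cells of a type and less RNA per cell cannot be told apart.

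In the cycle, AMP deaminase turns AMP into IMP and releases ammonia. Adenylosuccinate synthase then joins IMP to aspartate, and adenylosuccinate lyase splits the product into AMP and fumarate. Working skeletal muscle is known for a high flux through the cycle, which limits the build-up of AMP, and for its own isoforms of the first 2 enzymes, AMPD1 and ADSSL1. AMPD2 and the synthase encoded by Adss are found in most tissues, and AMPD3 is an isoform known from red blood cells. A single lyase serves both the cycle and the making of new purines.

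Values are scaled intensities, in which each array was brought to a common trimmed mean, and the floor of an array is the 40th percentile of its values. A value below the floor carries little signal over background, and intensities of different probe sets are not compared as levels. A log2 difference is tumour minus muscle in log2(scaled intensity + 16). The floors ran from 96.5 to 137 in tumours and from 97.0 to 113 in muscles. Within groups, Spearman's correlation of the arrays over probe sets ran from 0.826 to 0.936 in tumours and from 0.889 to 0.922 in muscles. The labels were checked against marker genes. The summed intensity of 12 fast muscle genes was 760 to 132317 in tumours and 523565 to 748509 in muscles, and that of 6 synovial sarcoma markers was 6897 to 14734 in tumours and 2722 to 3275 in muscles. The ratio of the 3-prime to the 5-prime control probe set of Actb, a measure of RNA integrity, was 12.7 in tumour 1 and 4.54 in tumour 4, 1.99 to 2.90 in the other tumours and 1.62 to 1.93 in muscles.

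The promoters of the synthase isoforms and of the lyase are shown because the isoforms differed in opposite directions between the tissues and the lyase serves both. They are RefSeq sequences of build GRCm38.p6, 250 bases before to 50 bases after the annotated start, with matches to the GC box GGGCGG on either strand in capitals, overlapping matches counted apart. RefSeq entries matched 5 of the 6 genes, and Ampd1 is named only. Adssl1 lies at chr12:112619797-112620096 on the + strand, Adss at chr1:177796460-177796759 on the - strand and Adsl at chr15:80948240-80948539 on the + strand.
Adssl1: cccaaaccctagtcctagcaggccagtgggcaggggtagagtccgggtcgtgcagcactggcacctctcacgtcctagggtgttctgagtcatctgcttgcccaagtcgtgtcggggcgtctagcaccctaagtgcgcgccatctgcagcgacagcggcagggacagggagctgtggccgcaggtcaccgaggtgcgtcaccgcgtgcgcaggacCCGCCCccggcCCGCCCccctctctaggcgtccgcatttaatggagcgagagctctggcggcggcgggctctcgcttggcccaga
Adss: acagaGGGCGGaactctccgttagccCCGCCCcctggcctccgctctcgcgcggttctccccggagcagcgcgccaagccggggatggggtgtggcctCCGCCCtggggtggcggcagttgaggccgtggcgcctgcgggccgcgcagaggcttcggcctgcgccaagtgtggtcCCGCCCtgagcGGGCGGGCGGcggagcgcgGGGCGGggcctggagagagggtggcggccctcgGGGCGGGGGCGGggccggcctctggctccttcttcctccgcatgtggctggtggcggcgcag
Adsl: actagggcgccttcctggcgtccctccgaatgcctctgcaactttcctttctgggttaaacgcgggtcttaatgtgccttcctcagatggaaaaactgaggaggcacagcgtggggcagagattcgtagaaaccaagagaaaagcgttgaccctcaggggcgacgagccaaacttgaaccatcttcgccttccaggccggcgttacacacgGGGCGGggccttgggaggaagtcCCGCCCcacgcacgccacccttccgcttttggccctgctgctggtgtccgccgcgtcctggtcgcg
The Adss window held 9 matches, against 2 in the Adssl1 window and 2 in that of Adsl, and 35.7% of 32851 promoter windows held at least 1. GC content was 77.7% for Adss, 67.7% for Adssl1 and 61% for Adsl, with a median of 52.7% over all windows. The E-box CANNTG matched 3 times in Adss, 2 times in Adssl1 and 1 time in Adsl, and was in 72.3% of windows. A MEF2 box, in 3.19% of windows, and a CArG box, in 1.63%, had 0 matches in these 3 windows.

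The muscle isoforms of the cycle were far lower in the tumours, and the isoforms of other tissues took different courses. Ampd1 and Adssl1 lay on all 5 tumour arrays below all 4 muscle arrays. Adsl was lower as well, to a smaller degree, Ampd2 was higher by one of its probe sets, Adss was higher in 4 of the 5 tumours than in any muscle, and Ampd3 overlapped between the groups. The arrays of the groups did not overlap for 4 of the 6 genes, 3 with tumours lower and 1 with tumours higher. Of all 10646 genes tested, 40.5% had no overlap, 15.2% with tumours lower and 25.3% with tumours higher. By the test used for other genes below, 5 of the 6 would be called, 2 higher and 3 lower, where 48.1% of all genes were, 30.1% higher and 18% lower. Nothing is read from these counts, since the genes were chosen on this contrast. All 6 passed the filter on dim genes.

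**Figure D1:**
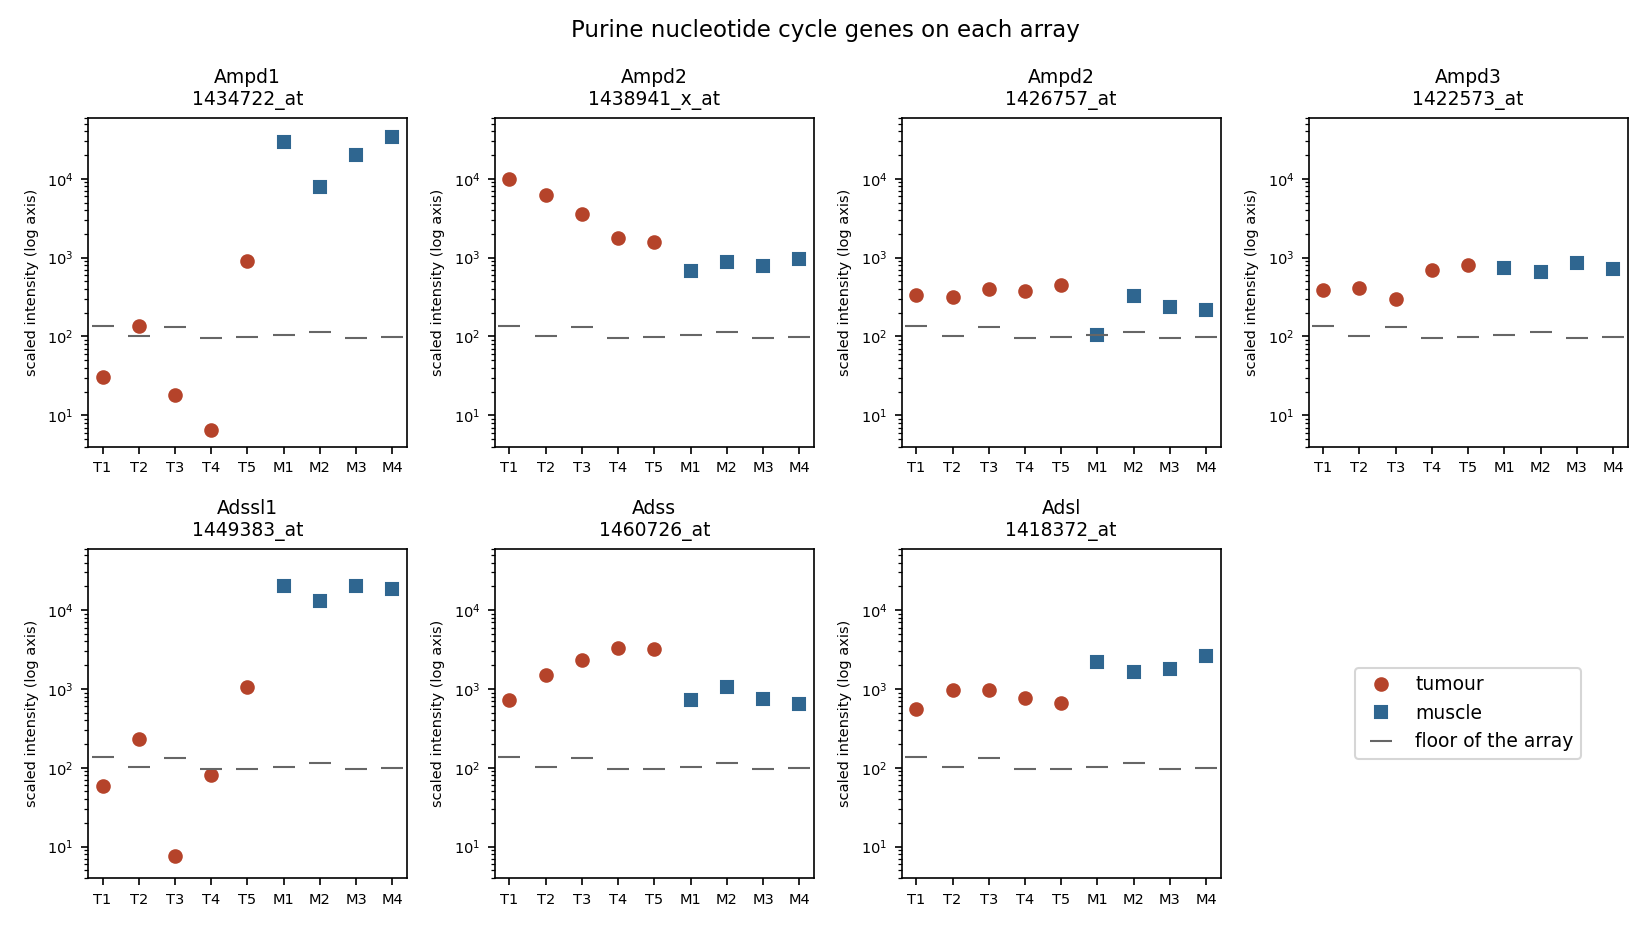
Scaled intensity (log axis) of the 7 probe sets of the 6 cycle genes on the 5 tumour arrays (circles, T1 to T5) and the 4 muscle arrays (squares, M1 to M4), with the floor of each array as a grey line. Ampd1 and Adssl1 lie below the floor in tumours 1, 3 and 4 and highest among tumours in tumour 5, at 899 and 1070, below every muscle array.

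Ampd1 (1434722_at), the AMP deaminase of skeletal muscle, was at 30.7, 135, 18.1, 6.50 and 899 in tumours 1 to 5, against 29366, 7886, 20240 and 34128 in muscles 1 to 4. Tumours 1, 3 and 4 were below the floor, tumour 5 stood above the other tumours, and no tumour reached the lowest muscle. The log2 difference was −7.85 (SE 1.17 from the pooled spread, n = 5 and 4), a level 230-fold lower in tumours. Without tumour 5 it was 415-fold lower, and with values below the floor raised to the floor 98.1-fold lower. In those 3 tumours the value is at background, and the size of the difference has no firm value there.

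Adssl1 (1449383_at), the adenylosuccinate synthase of muscle, was at 59.5, 229, 7.52, 79.9 and 1070 in tumours 1 to 5, against 20318, 12999, 20463 and 18712 in muscles 1 to 4. The same 3 tumours were below the floor and tumour 5 was again the highest tumour. The log2 difference was −7.04 (SE 1.06), or 132-fold lower. It was 222-fold lower without tumour 5, 85.2-fold lower without tumour 3 and 76.7-fold lower with values below the floor raised to it.

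Adss (1460726_at), the synthase of most tissues, was at 723, 1519, 2302, 3333 and 3246 in tumours 1 to 5, against 727, 1049, 745 and 644 in muscles 1 to 4. Tumour 1 lay among the muscles and the other 4 tumours above them. The mean was 2225 ± 1121 (SD, n = 5) over the tumours, against 791 ± 177 (SD, n = 4) over the muscles, a log2 difference of 1.30 (SE 0.48). Tumour 1 also had the highest 3-prime to 5-prime ratio of Actb, 12.7, and without it the log2 difference was 1.65. The part of RNA integrity in this was not tested.

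Ampd2 differed by probe set. By 1438941_x_at, the brighter one, it was at 9826, 6212, 3608, 1768 and 1566 in tumours 1 to 5, against 680, 882, 787 and 971 in muscles 1 to 4. All tumours were above all muscles, tumours 1 to 3 most, and the log2 difference was 2.11 (SE 0.58). Tumour 1, the highest, also had the highest 3-prime to 5-prime ratio of Actb, 12.7. Without tumour 1 the log2 difference was 1.75, and the part of RNA integrity was not tested. By 1426757_at it was at 337, 314, 405, 376 and 445 in tumours and 104, 330, 239 and 218 in muscles, so that tumour 2 fell below muscle 2. There the log2 difference was 0.80 (SE 0.30). The highest tumour was 6.27 times the lowest by the first probe set and 1.42 times by the second, and the order of the tumours differed. In Affymetrix naming, a probe set ending in _x_at may also bind other transcripts, and its part in the difference was not tested.

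Ampd3 (1422573_at), a deaminase known from red blood cells and grouped here with the isoforms of other tissues, was above the floor on all arrays. It was at 394, 411, 299, 699 and 818 in tumours 1 to 5, against 739, 662, 852 and 718 in muscles 1 to 4. Tumours 1 to 3 were below every muscle, and tumours 4 and 5 among them. The mean was 524 ± 222 (SD, n = 5) over the tumours, against 743 ± 80.0 (SD, n = 4) over the muscles, a log2 difference of −0.58 (SE 0.31). The summed intensity of 4 red cell genes was 61.6 to 166 in tumours, with all 4 below the floor on every tumour array, Hba-a1 and Alas2 among them, and 304 to 4792 in muscles. The part of red cells in the Ampd3 values was not tested.

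Adsl (1418372_at), the lyase that closes the cycle, was at 559, 977, 982, 767 and 656 in tumours 1 to 5, against 2188, 1640, 1798 and 2624 in muscles 1 to 4. Every tumour was below every muscle. The mean was 788 ± 190 (SD, n = 5) over the tumours, against 2063 ± 439 (SD, n = 4) over the muscles, a log2 difference of −1.38 (SE 0.22). Adsl had the least spread among tumours of the 6 genes by the probe sets used, with the highest tumour 1.76 times the lowest, where the highest was 138 times the lowest for Ampd1 and 142 times for Adssl1.

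The directions of the 6 genes held under the 5 scalings compared. The median log2 difference of all genes tested was 0.23 as reported, 0.11 on the values as deposited, 0.04 when each array was centred on its median, 0.46 when it was centred on genes of the ribosome and proteasome, and 0.09 after quantile normalization. Relative to that median, Ampd1 ran from −8.12 to −7.71, Adssl1 from −7.29 to −6.89, Adsl from −1.62 to −1.58, Ampd3 from −0.93 to −0.81, Adss from 1.06 to 1.11 and Ampd2 from 1.87 to 1.97.

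A ratio of 2 genes within an array does not depend on the scaling, apart from the pseudocount, and shows how unequally they differed. Relative to the mean of the muscle arrays, the log2 ratio of Adssl1 over Adss was −7.78, −7.14, −11.11, −9.62 and −6.08 in tumours 1 to 5, against 0.28, −0.88, 0.26 and 0.34 in muscles 1 to 4. Every tumour shifted away from the muscle isoform. In tumours 1, 3 and 4 the ratio rests on Adssl1 values below the floor, so neither their order nor the spread among tumours is read. The mean shift in tumours was −8.35 ± 2.01 (SD, n = 5), where the muscle arrays had an SD of 0.59 (n = 4), and without tumour 3 it was −7.65.

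With Ampd2 by 1438941_x_at, the log2 ratio of Ampd1 over Ampd2 was −12.30, −9.94, −11.31, −10.89 and −5.37 in tumours 1 to 5, against 0.82, −1.44, 0.08 and 0.54 in muscles 1 to 4. In tumours 1, 3 and 4 the ratio rests on Ampd1 values below the floor, so no order among these is read. It shifted least in tumour 5, and its mean of −9.96 was −11.11 without that tumour and −9.38 without tumour 1. The log2 ratio of Ampd1 over Ampd3 was −7.86, −6.22, −7.93, −9.72 and −4.59 in tumours 1 to 5, against 0.56, −1.18, −0.18 and 0.81 in muscles 1 to 4. Its mean of −7.27 was −7.93 without tumour 5 and −6.65 without tumour 4. The same limit holds for this ratio in tumours 1, 3 and 4. With values below the floor raised to it, the mean shifts were −7.56 for Adssl1 over Adss, −8.73 for Ampd1 over Ampd2 and −6.03 for Ampd1 over Ampd3.

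**Figure D2:**
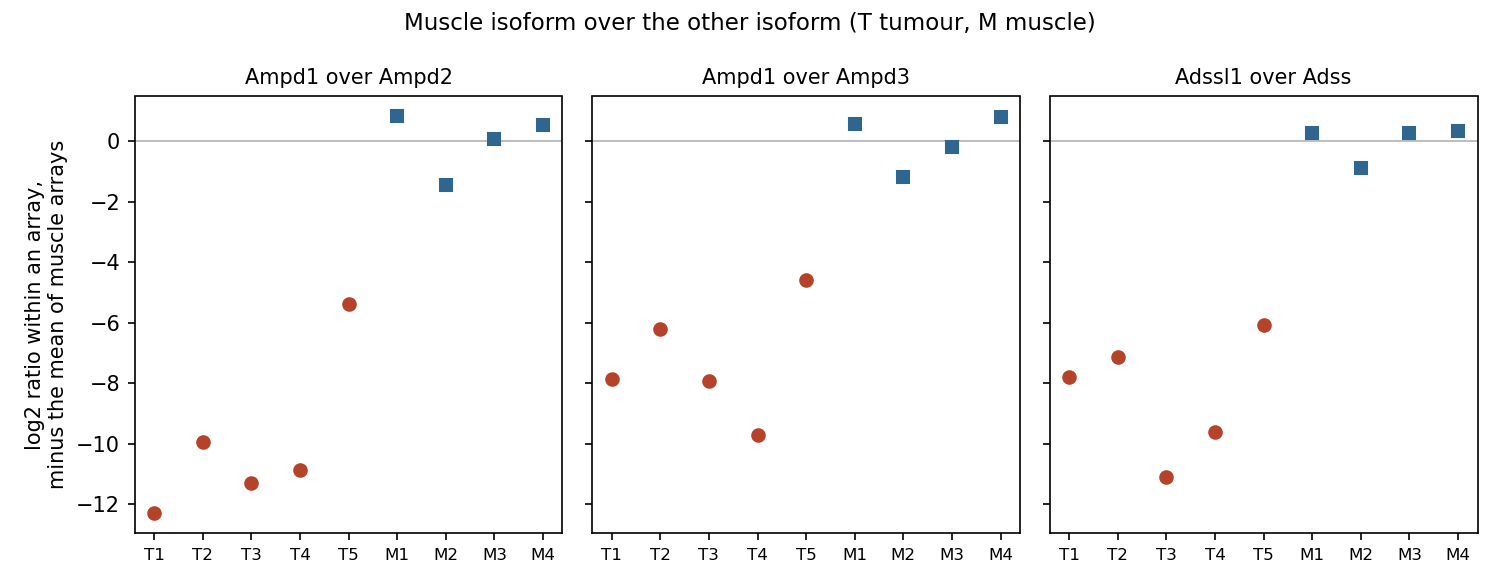
Log2 ratio of the muscle isoform over another isoform within each array, minus the mean of the 4 muscle arrays, for tumours (circles, T1 to T5) and muscles (squares, M1 to M4). All tumours lie below all muscles in the 3 ratios, with means of −9.96, −7.27 and −8.35 from left to right.

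The remaining signal of Ampd1 and Adssl1 was set beside that of fast muscle genes, each as a percent of its own mean in the muscle arrays. In tumour 1 the median of the 12 fast muscle genes was 5.10%, with Tnnc2, fast troponin C, at 53.0% and Acta1, skeletal actin, at 17.2%. There Ampd1 was at 0.134% and Adssl1 at 0.328%, both below the floor. Myh4, a fast myosin heavy chain, was at 0.162%, and the other 11 fast genes were at 2.59% or more.

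In tumour 5 the median fast muscle gene was at 16.8%, and Ampd1, at 3.92%, and Adssl1, at 5.91%, were below the lowest of the 12, Ryr1, the calcium release channel, at 9.27%. In tumour 2 the median was 2.02%, with Adssl1 at 1.27% and Ampd1 at 0.590%, and 11 of 12 fast genes had a higher share than Ampd1. In tumours 3 and 4 the medians were 0.642% and 0.116%, and the values of Ampd1 and Adssl1 were below the floor, so that their order among the fast genes cannot be read. In the 2 tumours where both Ampd1 and Adssl1 were above the floor, tumours 2 and 5, both shares were below the median fast gene.

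**Figure D3:**
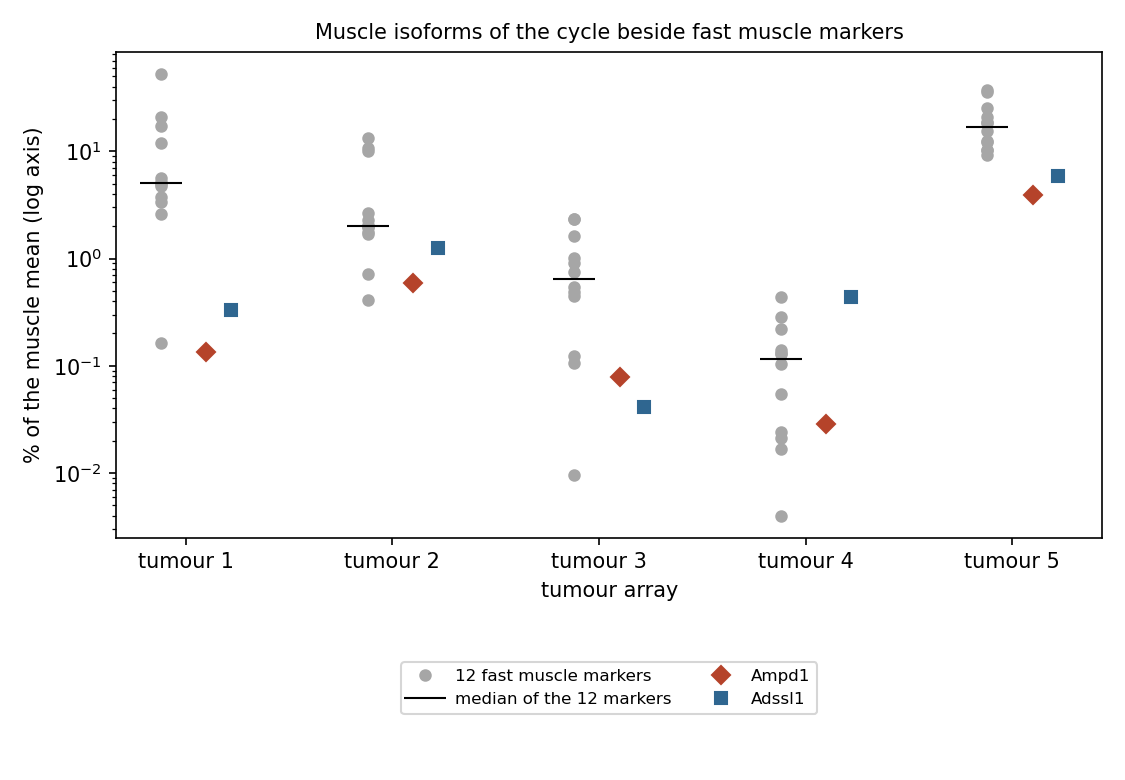
Intensity in each tumour as a percent of the mean of the 4 muscle arrays (log axis), for the 12 fast muscle genes (grey), their median (black line), Ampd1 (diamonds) and Adssl1 (squares). In tumour 5, Ampd1 at 3.92% and Adssl1 at 5.91% lie below all 12 fast muscle genes.

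The 3 tumours labelled CC did not overlap with the 2 labelled SSM for Ampd2, Ampd3 and Adss, 3 of the 6 genes, where 42.2% of all genes tested did not, a share near that of the 6 genes. By 1438941_x_at, Ampd2 was higher in the CC tumours, but by 1426757_at it overlapped, at 337, 314 and 405 in CC tumours and 376 and 445 in SSM tumours. Ampd3 and Adss were lower in the CC tumours, while Ampd1, Adssl1 and Adsl overlapped. Each of these is a description of 5 tumours, of which CC17-A and CC17-B share a label.

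Among muscles, the intercostal sample, muscle 2, had the lowest Ampd1, at 34.4% of the muscle mean, where the other 3 were at 88.4% to 149%. It also had the lowest Adssl1, at 71.7%, and Adsl, at 79.5%, and the highest Adss, at 133%. Its fast muscle genes summed to 523565, against 697138 to 748509 in the limb samples, and its 5 slow muscle genes to 63654, against 18115 to 31368. Its 5 adipocyte genes summed to 63090, against 4299 to 7436 in the limb samples. It is a single sample, and the part of fibre type or fat in these values was not tested.

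By the mean absolute difference over the 9 arrays of log2 levels set to the muscle mean, the genes most like Ampd1 among those tested were Asb15 (0.75), Adssl1 (0.77) and Mylk4 (0.82). Those most like Adssl1 were Tuba8 (0.68), Dhrs7c (0.73) and Asb14 (0.76), with Ampd1 at rank 4. For Adss they were H2-K1 (0.11), Anapc1 (0.14) and B3gnt2 (0.15), and for Adsl Pyurf (0.15), Mob2 (0.17) and Mmachc (0.18). For Ampd2 they were Dzip3 (0.19), Kdm5b (0.20) and Mcm4 (0.25), and for Ampd3 Jcad (0.12), Timp2 (0.14) and Per3 (0.15). All share the same 9 arrays and, for the muscle isoforms, the step between the tissues and values near background.

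Genes that surround the cycle were tested between tumours and muscle with limma and Benjamini-Hochberg adjustment over 10646 genes, of which 5119 (48.1%) were called at an adjusted p under 0.05, 3207 higher and 1912 lower. The share of calls that were higher was 62.6%. It was 51.9% after centring each array on its median and 73.4% after centring it on genes of the ribosome and proteasome. Of 42 purine and partner genes tested in 6 lists, 11 were higher in tumours, 13 lower and 18 not called, so that 57.1% were called, with a median log2 difference of −0.16 beside 0.23 over all genes. The lists were chosen with earlier results of these arrays known.

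**Figure D4:**
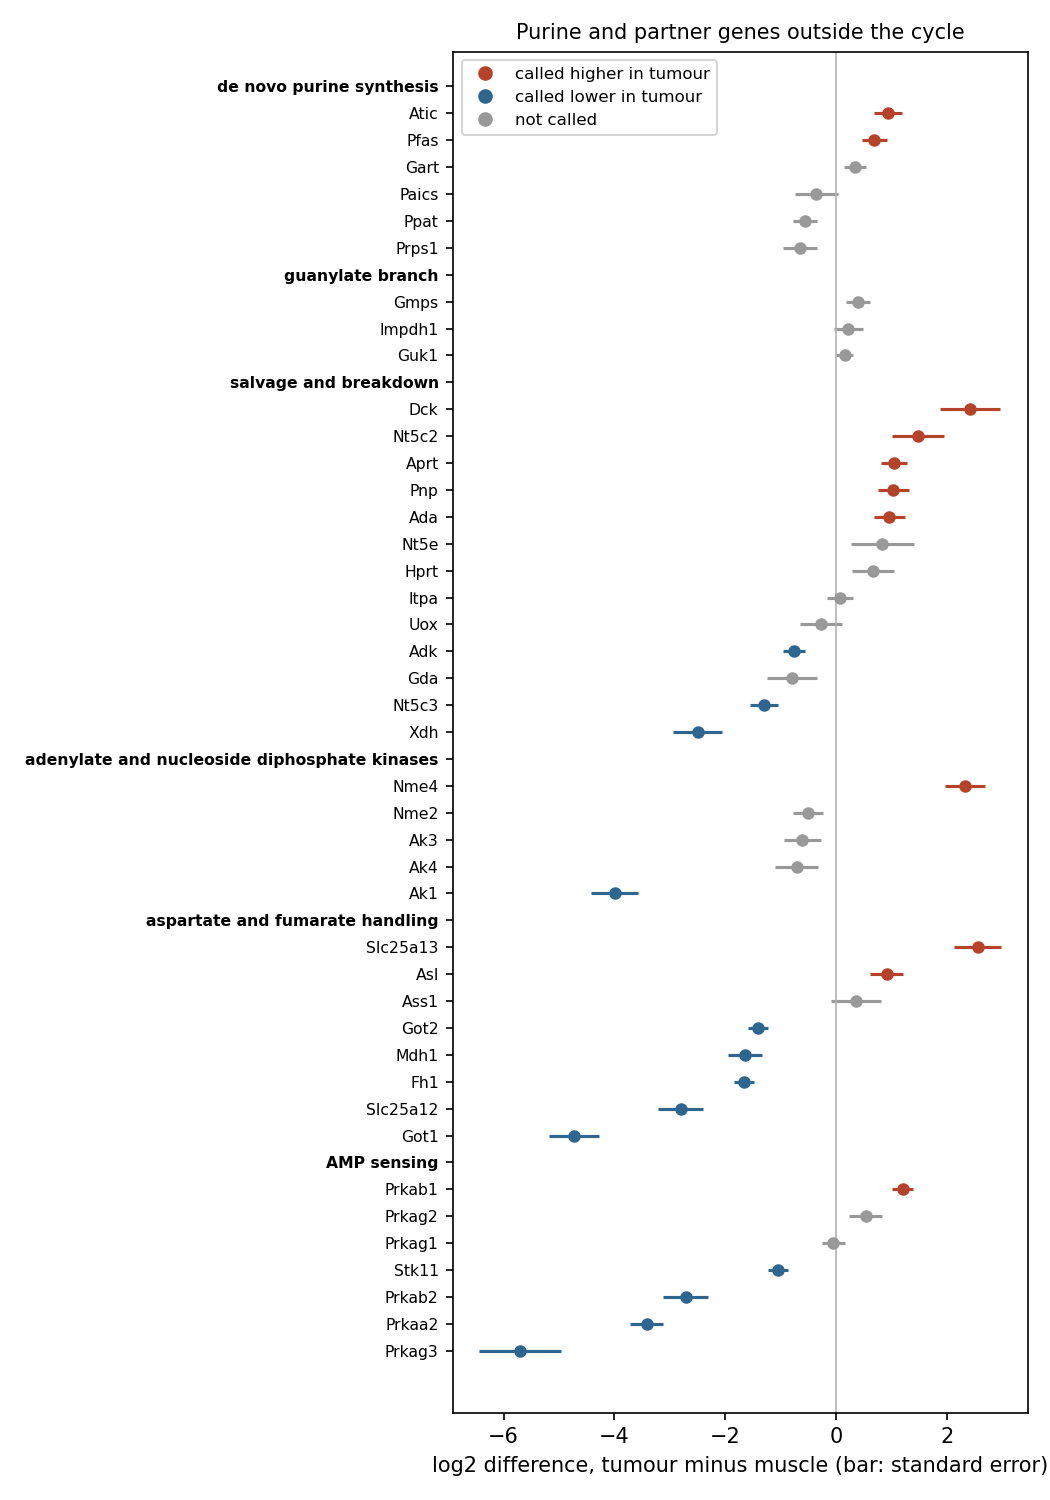
Log2 difference, tumour minus muscle, of 42 tested purine and partner genes in 6 lists, with standard errors from limma as bars and calls at an adjusted p under 0.05 in colour. Prkag3, Got1 and Ak1, at −5.70, −4.73 and −4.00, lie furthest to the left, and Prkag3 was below the floor in 4 tumours.

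Genes that supply the cycle with aspartate or take up its fumarate were mostly lower in tumours. Of 8 tested, 5 were lower, 2 higher and 1 not called, with a median log2 difference of −1.53. Of all genes tested, 18% were lower and 30.1% higher. Got1, the cytosolic aspartate aminotransferase, averaged 273 ± 196 (SD, n = 5) over the tumours, against 6522 ± 1776 (SD, n = 4) over the muscles, and fell by 4.73 on the log2 scale (SE 0.45, limma adjusted p = 2.02e-05). Its mitochondrial counterpart Got2 fell by 1.42, Fh1, the fumarase, by 1.66, and Mdh1, the cytosolic malate dehydrogenase, by 1.65. The probe set used for Mdh1 ends in _x_at. As the mean of all its probe sets, Mdh1 was at −1.06, and after quantile normalization at −1.07.

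The mitochondrial aspartate carriers went opposite ways. Slc25a12, the carrier of muscle and brain, was at 48.2, 115, 287, 185 and 163 in tumours 1 to 5, against 1299, 686, 1204 and 1220 in muscles 1 to 4, a log2 difference of −2.80 (limma adjusted p = 0.000238). Slc25a13, the carrier best known from liver, was at 135, 153, 548, 254 and 302 in tumours 1 to 5, against 23.4, 48.1, 18.1 and 30.6 in muscles 1 to 4. All muscles and tumour 1 were below the floor, and Slc25a13 passed the filter on dim genes only through tumours 2 to 5. With the muscles set to their floors, the mean of the tumours was 2.21-fold higher. The limma adjusted p of 0.000617 uses muscle values below the floor and adds no separate support. Asl, which splits argininosuccinate and also yields fumarate, rose by 0.91 (adjusted p = 0.0238), but without tumour 4 its adjusted p was 0.0551, without muscle 1 0.0681 and without muscle 3 0.0734. On the values as deposited the adjusted p of Asl was 0.0791. Slc25a13 had too few arrays above the floor to be tested without any one of tumours 2 to 5, and the count of higher genes was then 1, or 0 without tumour 4.

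Adenylate kinase, which makes AMP and ATP from ADP and so feeds the deaminase, had a muscle isoform that fell. Ak1 was at 1069, 534, 761, 1680 and 2702 in tumours 1 to 5, against 21154, 12123, 20662 and 22459 in muscles 1 to 4. Every tumour was below every muscle, with a log2 difference of −4.00 (SE 0.42, limma adjusted p = 3.45e-05), or −3.20 as the mean of all Ak1 probe sets. The mitochondrial forms Ak3 and Ak4 were not called, at −0.61 and −0.71, and Ak4 was called lower after quantile normalization (adjusted p = 0.0418). Of 5 kinases tested, 1 was lower, 1 higher and 3 not called, so 40% were called, where 48.1% of all genes tested were. The higher one was Nme4, a mitochondrial nucleoside diphosphate kinase, which averaged 718 ± 286 (SD, n = 5) over the tumours, against 125 ± 43.2 (SD, n = 4) over the muscles (log2 difference 2.33, limma adjusted p = 0.000361). Nme2 was at −0.50 and was called without tumour 1, at −0.69 (adjusted p = 0.0198), which made the count of lower kinases 2.

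The 7 genes tested for AMP sensing were 6 subunits of the AMP-activated kinase and its activator Stk11. Of these, 4 were lower, 1 higher and 2 not called, so 71.4% were called, where 48.1% of all genes tested were. Prkag3, the gamma subunit of fast muscle, was at 93.1, 41.6, 12.2, 11.3 and 158 in tumours 1 to 5, against 7276, 711, 3051 and 6250 in muscles 1 to 4. Only tumour 5 was above the floor, and the intercostal muscle had the lowest muscle value, as for Ampd1. The log2 difference of Prkag3 was −5.70 (limma adjusted p = 0.000112), or −6.41 without muscle 2. Prkaa2, the catalytic subunit of muscle, fell by 3.42, and Prkab2, a beta subunit rich in muscle, by 2.72, while the other beta subunit, Prkab1, rose by 1.20 (adjusted p = 0.000406). Within an array, the log2 ratio of Prkab2 over Prkab1 was lower in tumours than in muscles by 3.92 on average, with an SD of 0.31 in tumours (n = 5) and 1.18 in muscles (n = 4). Stk11, the kinase that activates the complex, fell by 1.05, and as the mean of its probe sets it was at −1.83. Prkag1 was at −0.05, and Prkag2 was called without muscle 2, at 0.82 (adjusted p = 0.0195).

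Of 6 genes tested for new purine synthesis, in which Adsl also acts, 2 were higher and 4 not called. Their median log2 difference was −0.01. As a share, 33.3% were called, where 48.1% of all genes tested were. Atic, which makes IMP in the last steps, averaged 1861 ± 709 (SD, n = 5) over the tumours, against 917 ± 94.1 (SD, n = 4) over the muscles, with every tumour above every muscle (log2 difference 0.94, limma adjusted p = 0.0102). As the mean of all its probe sets, Atic was at 0.51 (adjusted p = 0.195). Pfas rose by 0.69 (adjusted p = 0.0282). The call was lost without tumour 2 (adjusted p = 0.0570), tumour 3 (0.0566), muscle 2 (0.0654) or muscle 3 (0.0872), which left 1 higher gene. The adjusted p of Pfas was 0.0864 on the values as deposited and 0.117 after centring each array on its median. It was 0.161 after quantile normalization, at a log2 difference of 0.43, and 0.0509 with the CC17 pair averaged. The groups overlapped for Pfas, with tumour 5 at 445 and muscle 1 at 486.

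Gart, at 0.33, and Paics, at −0.36, were not called, and neither was Ppat, the first committed enzyme, at −0.56 (adjusted p = 0.0580) or Prps1 at −0.66. Ppat was called lower without tumour 3 (adjusted p = 0.0421) and under 5 other alternatives, among them quantile normalization (adjusted p = 0.0134) and the mean of its probe sets, at −0.77 (adjusted p = 0.00866). Prps1 was called lower without tumour 5, at −0.84 (adjusted p = 0.0327). The summed intensity of 6 genes of dividing cells was 7121 to 14795 in tumours and 381 to 1644 in muscles, and its part in these values was not tested. Of 3 genes of the guanylate branch tested, which draws on the same IMP, 0 were called by limma, where 48.1% of all genes tested were. The unadjusted limma p was above 0.05 for each: Impdh1 at a log2 difference of 0.22, Gmps at 0.39 and Guk1 at 0.15. Gmps was called without tumour 1, at 0.53 (adjusted p = 0.0343).

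Genes of purine salvage and breakdown were called in both directions, 5 higher, 3 lower and 5 not called of 13. Their median log2 difference was 0.66. The share called was 61.5%, where it was 48.1% over all genes tested, 30.1% higher and 18% lower. Dck, which phosphorylates deoxynucleosides, averaged 2640 ± 1774 (SD, n = 5) over the tumours, against 452 ± 305 (SD, n = 4) over the muscles (log2 difference 2.41, limma adjusted p = 0.00387), or at 1.72 as the mean of all its probe sets. Aprt, which salvages adenine, rose by 1.04, Pnp, which splits inosine and guanosine, by 1.03, Ada, which deaminates adenosine, by 0.96 with 3 of the 4 muscles below the floor, and the nucleotidase Nt5c2, which acts on IMP, by 1.47. For Nt5c2, muscle 3 was below the floor, at 25.3, and without that array the log2 difference was 0.95. The call of Nt5c2 ended without tumour 3 (adjusted p = 0.0541) or muscle 4 (adjusted p = 0.0550), and that of Ada without tumours 1 and 4 together (adjusted p = 0.0686).

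Xdh, which oxidises hypoxanthine to uric acid, was at 206, 98.6, 94.2, 386 and 507 in tumours 1 to 5, against 1150, 1407, 1263 and 1242 in muscles 1 to 4. Tumours 2 and 3 were below the floor, every tumour was lower than every muscle, and the log2 difference was −2.50 (SE 0.44, limma adjusted p = 0.000865). Nt5c3 fell by 1.31 (adjusted p = 0.00146), but as the mean of its probe sets it was at −0.44 and not called. It encodes a nucleotidase best known for pyrimidine nucleotides, although it is counted here among the lower genes of the purine list. Adk, the adenosine kinase, fell by 0.75 (adjusted p = 0.00914), and was at −0.17 after quantile normalization (adjusted p = 0.552). The call was also lost after centring on genes of the ribosome and proteasome, at −0.52 (adjusted p = 0.0929). With probe sets ending in _at alone, Adk was at −0.73 and not called (adjusted p = 0.110). Hprt, which salvages hypoxanthine, was at 941, 2484, 2188, 3539 and 2761 in tumours 1 to 5, against 1307, 2441, 1071 and 1064 in muscles 1 to 4. It was not called (log2 difference 0.66, adjusted p = 0.174), and without tumour 1, the array with the Actb ratio of 12.7, it was called at 0.96 (adjusted p = 0.0172). Nt5e, which makes adenosine from AMP outside the cell, was at 129 to 1319 in tumours and 187 to 429 in muscles and was not called, at 0.83.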

How the data were processed

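Total RNA was measured on Affymetrix arrays, 1 per sample, in 5 tumours and 4 skeletal muscles. The authors deposited 1 signal per probe set, an intensity on a linear scale made with MAS5, per the submitters' processing notes. Version and scaling target are not given in the sources used here. Arrays were scaled to a common trimmed mean (2% off each end; factors 0.909 to 1.29). Left out were 7 control probe sets, 496 with several symbols and 4424 with none. Each gene took its probe set with the highest mean, and was tested if at or above the floor on at least 4 arrays. Tests used limma 3.58.1 in R 4.3.3 (lmFit, eBayes with trend, two-sided) on log2(scaled intensity + 16). The procedure was tested on simulated data. The 6 genes and all lists were chosen with earlier results of these data known. Members were named with all probe sets. From each purine list, up to 6 called genes in each direction and a fixed set of enzymes were named, and the 3 genes nearest each member. Prps1, Guk1, Ak3, Nme2, Prkag1, Prkag2, Uox, Tnnc2 and Ryr1 were named after their values were seen. Marker lists for macrophages, lymphocytes and endothelium were also summed: 1217 to 4030, 154 to 276 and 1217 to 2325 in tumours, against 1626 to 2151, 194 to 502 and 2556 to 2790 in muscles. The 5 adipocyte genes summed to 424 to 15869 in tumours. Alternatives were other scalings, pseudocounts, filters, probe set choices and limma settings, the CC17 pair averaged, and each array left out. Depth is set by the number of arrays. Some listed genes were not analysed here.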

Additional observations from a re-analysis of the deposited data

Results flagged for a closer look

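Among the values of the 7 member probe sets and 43 purine and partner genes, 100 groups were looked at for 1 array far from the rest of its group, by the gap to the nearest array over the range of the group in log2 level, and 6 had one. Chance gives about 1 in 20 groups. Among muscles, the array was the intercostal sample, muscle 2, each time. Paics was at 7942 there and at 10332 to 10822 in the other muscles, Ak1 at 12123 there and at 20662 to 22459 in the others, and Slc25a12 at 686 there and at 1204 to 1299 in the others. Prkag2 was higher there, at 600.2, with 245 to 285 in the others. Among tumours, Uox was at 258 in tumour 3 and at 83.4 to 108 in the others, of which 3 were below the floor, and Ak4 was at 78.0 in tumour 2, below the floor, and at 218 to 316 in the others.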

How the results depend on the processing

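The 6 members and the 3 isoform ratios kept their direction under all their alternatives, 21 for each member and 17 for each ratio. Ampd2 moved by more than the spread between arrays with probe sets ending in _at alone, to a log2 difference of 0.80. There the number of purine and partner genes called higher was 7, against 11 as reported, with fewer genes tested. Over single arrays left out, that number ran from 8 to 13 and the number called lower from 13 to 14. Over the same, the log2 difference ran from −8.70 to −7.36 for Ampd1, from 1.75 to 2.41 for Ampd2, from −0.76 to −0.41 for Ampd3, from −7.79 to −6.41 for Adssl1, from 1.11 to 1.65 for Adss and from −1.48 to −1.26 for Adsl. All genes called ran from 2710 to 3348 higher and from 1502 to 1954 lower. Of 988 results of single purine genes under an alternative, 930 kept direction and call, 25 lost the call, 14 gained it and 19 changed sign in genes not called either way. The sign changed with the mean of probe sets for Gart (−0.15) and Prkag1 (0.37), with probe sets ending in _at alone for Paics (0.12) and Prkag2 (−0.0077), and with quantile normalization for Paics (0.094), Impdh1 (−0.015), Guk1 (−0.034), Itpa (−0.14) and Nme2 (0.071). It changed with median centring for Guk1 (−0.045) and Itpa (−0.12), with centring on genes of the ribosome and proteasome for Prkag1 (0.18), and for Itpa with deposited values (−0.058) and the CC17 pair averaged (−0.011). Prkag1 was at 0.083 without tumour 5 and muscle 2. Over single arrays left out, Itpa ran from −0.020 to 0.23 and Prkag1 from −0.19 to 0.045. The cause was not tested. Chosen after seeing the data were leaving out tumour 5 with muscle 2 or tumour 1 with tumour 4, and raising values below the floor to it. Without tumour 5 and muscle 2, 10 genes were called higher and 12 lower. No paired analysis was possible because the tumours are labelled MYF-5 CRE/SSM2 and the muscles wild type, so by label no tumour and muscle share an animal. Values near the floor limit Ampd1, Adssl1 and Prkag3 in tumours and Slc25a13 and Ada in muscles, among others.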
